A study of Mus musculus with 58 samples.

Results

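The soleus (SOL) and the extensor digitorum longus (EDL) of the same mouse were compared for their response to a tumour. The data used were the 24 arrays of the untrained mice, SOL and EDL of 6 tumour-bearing mice (T) and of 6 control mice (C), chosen by their labels out of 58 arrays of SOL, EDL and heart. All animals were male CD2F1 mice, the cross of BALB/c and DBA/2, aged 6 to 8 weeks and housed individually. T mice were injected under the skin of the flank with 1000000 C26 cells, a mouse colon adenocarcinoma line, suspended in Hank's balanced salt solution (0.2 ml). C mice received 0.2 ml of the solution alone. All were killed on day 19. Another 11 mice, 5 T + WBV and 6 C + WBV, had the same injections and also stood on a vibrating plate daily, each session lasting 15 min at a frequency of 45 Hz with an acceleration of 1 g. They served as a separate set of animals in which the response difference of each gene was looked at again. One muscle sample of a mouse gave 1 array, so a value is an average over all cells of that sample, and fewer cells of a type cannot be told apart from less RNA per cell. Body mass at day 19, as a percentage of the mass around the injection, was 77.5 to 91.0% in T and 107.9 to 114.5% in C.

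The measurement was total RNA on whole-transcript arrays, with 18820 genes on a log2 scale, so that a difference of 1 is a 2-fold change. For each mouse and gene the EDL level was subtracted from the SOL level. The mean of these differences in T minus that in C is called the response difference below. It is positive where the tumour response was more positive, or less negative, in SOL than in EDL. A gene was called where the adjusted p of limma was under 0.01, and an error of a response is a standard error of the fit (SE).

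SOL is a postural muscle rich in slow type I and type IIa fibres, whereas EDL is a fast muscle made mostly of type IIb and IIx fibres. In cachexia, the wasting that accompanies many tumours, muscle protein is broken down through the ubiquitin and proteasome system and through autophagy, under the control of FoxO transcription factors, glucocorticoids and cytokines of the interleukin 6 family. Fast glycolytic fibres are known to lose more mass in this state than slow oxidative ones. The labelled muscles carried their defining transcripts. The mean of 7 slow fibre markers was 12.18 to 12.30 in SOL and 6.77 to 8.55 in EDL of the C mice. That of 8 fast fibre markers was 12.57 to 12.68 in EDL and 10.13 to 10.56 in SOL. No marker of either set was called in the response difference.

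The tumour response differed between the muscles for 517 of 18820 genes. It was more positive in SOL for 216 genes, 1.15% of those tested, and more negative in SOL for 301, 1.60%. These shares are the background for the called genes of each list below. The lists were chosen with earlier results of these data known, so their counts are descriptions, and enrichment was not tested. With the arrays of each muscle normalized again on their own, the count over all genes was 514 but its split was 267 positive and 247 negative. The response difference was larger than 1 for 127 of the called genes, 64 positive and 63 negative. The differences of the T mice and of the C mice did not overlap for 320 of the 517 genes, and over all genes for 3.23%. The same differences had chosen the 517 genes, so the first count describes them and is no separate evidence. Leaving out each mouse in turn, 248 of the 517 genes (116 positive and 132 negative) were called in all 12 fits. Between 288 and 836 genes were called in those fits, the highest count without T replicate 3. This mouse had the highest body mass of the T mice, 91.0%, and its difference was the nearest of the 6 T mice to the C mean for 364 of the 517 genes. The part of the milder loss of body mass in these counts was not tested.

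**Figure D1:**
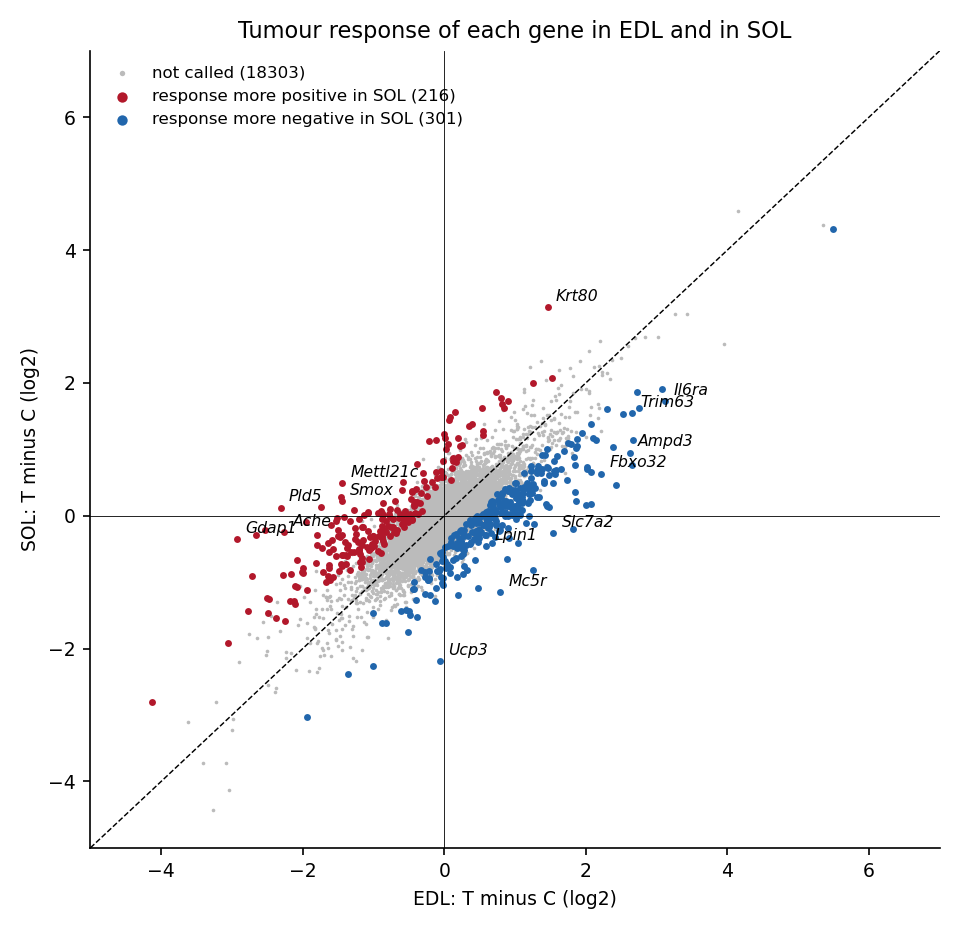
Tumour response (T minus C, log2) of each of 18820 genes in EDL (horizontal axis) and in SOL (vertical axis), with 216 genes called for a more positive response in SOL in red and 301 called for a more negative one in blue. The red points lie above the dashed line of equal response and the blue points below it, and most of both lie farther from 0 along the EDL axis.

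Within each muscle, more genes were called in EDL than in SOL. In EDL 1889 genes (10.0%) were higher and 2055 (10.9%) lower in T than in C, and in SOL 957 (5.09%) were higher and 1562 (8.30%) lower. The next counts set the muscles' own responses, which come from the same arrays, beside the response difference. Of the 216 positive genes, 108 fell in EDL and were not called in SOL, 59 fell in both muscles, 32 rose in SOL and were not called in EDL, 8 rose in both and 9 were called in neither. Of the 301 negative genes, 144 rose in EDL and were not called in SOL, 62 rose in both, 51 fell in SOL and were not called in EDL, 11 fell in both, 31 were called in neither, and 2 rose in EDL and fell in SOL. The response was the larger of the pair in EDL for 388 of the called genes and in SOL for 129. The same count over all genes was not made, so this split describes the called genes only. Over all genes the size of the response, as the root mean square distance of a T array from the C mean of its muscle, averaged 0.479 in EDL (SD 0.103, n = 6) against 0.445 in SOL (SD 0.0941, n = 6). It was lower in SOL in 4 of 6 mice, a mean of -0.0335 that did not pass an exact two-sided sign-flip test (p = 0.125, smallest possible p = 0.03125). Over genes above the median level it was -0.0665 (exact p = 0.03125), and with the median absolute distance in place of the root mean square it was -0.00504 (exact p = 0.625). C arrays, each set against the mean of the other C mice, averaged a root mean square distance of 0.222 in EDL and 0.228 in SOL.

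The largest positive response differences belonged mostly to genes that EDL held above SOL in C and that fell in EDL of T mice. The same C and T mice enter the response difference, so ranking by it favours this arrangement. The C + WBV mice, which do not enter it, are read further below. Gdap1, a protein of the mitochondrial outer membrane, ran from 5.45 to 6.47 (median 5.91) in EDL of C and from 2.58 to 3.97 (median 2.81) in EDL of T. In SOL it ran from 2.79 to 3.13 in C and 2.55 to 2.79 in T. The EDL groups did not overlap, and EDL of 5 of the 6 T mice lay within the range of the SOL arrays, T replicate 3 being above it. Gdap1 fell by 2.93 ± 0.210 (adjusted p = 1.70e-07) in EDL, while the SOL value was -0.35 ± 0.0938 (adjusted p = 0.0106), and its response difference was 2.58 ± 0.231 (SE, adjusted p = 1.78e-06). Pld5, a member of the phospholipase D family, was at 5.26 to 5.84 (median 5.67) in EDL of C and 2.99 to 3.82 (median 3.26) in EDL of T, against 2.64 to 3.45 and 2.87 to 3.38 in SOL. Every EDL T array lay below every EDL C array, and the SOL groups overlapped. Its response difference was 2.43 ± 0.185 (SE, adjusted p = 4.55e-07). The same arrangement held for the integrin chain gene Itga4 at 2.36 ± 0.275, for the cytochrome P450 gene Cyp4f39 at 2.33 ± 0.246, for the zinc finger repressor gene Zfp503 at 1.87 ± 0.231, for Aimp2, a scaffold of the multi-tRNA synthetase complex, at 1.86 ± 0.171, and for Pla2g7, which inactivates platelet-activating factor, at 1.75 ± 0.248. None of these 5 was called in SOL. In every SOL array of T and C, Gdap1, Pld5 and Cyp4f39 lay below the lowest median of an array, 4.52. How far such low levels limit a fall in SOL was not tested. Smox, which oxidizes spermine, was at 8.02 to 8.70 in EDL of C and 6.70 to 7.30 in EDL of T, and its response difference was 1.66 ± 0.153 (SE, adjusted p = 2.03e-06).

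Other large positive differences had another arrangement. Mettl21c, a lysine methyltransferase of muscle, was higher in SOL in both groups. In SOL it was at 7.23 to 8.47 (median 8.33) in C and 8.27 to 9.26 (median 8.48) in T, and in EDL at 3.93 to 6.02 (median 5.02) and 2.82 to 4.28 (median 3.58). It fell by 1.45 ± 0.314 (adjusted p = 0.00197) in EDL, so the muscles stood farther apart in T, with a difference of 2.29 to 3.85 in C and 4.41 to 6.07 in T. Map2k6, a kinase that activates p38, was at the same level in both muscles of C mice, 8.96 to 9.31 in EDL and 8.96 to 9.33 in SOL. It fell by 2.72 ± 0.165 (adjusted p = 3.47e-08) in EDL and fell by 0.91 ± 0.0849 (adjusted p = 1.50e-06) in SOL, a response difference of 1.81 ± 0.150 (SE, adjusted p = 1.10e-06). Krt80, a keratin gene, rose in both muscles, by 1.46 ± 0.365 (adjusted p = 0.00551) in EDL and 3.14 ± 0.371 (adjusted p = 1.51e-05) in SOL. Its difference within a mouse was -0.61 to 0.32 in C and 0.98 to 2.29 in T, and these ranges did not overlap.

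At the large negative end the genes had risen in EDL more than in SOL, or had fallen in SOL. Slc7a2, a transporter of cationic amino acids, was at 7.14 to 8.31 (median 7.71) in EDL of C and 8.54 to 9.92 (median 9.25) in EDL of T, and at 7.40 to 8.13 and 6.85 to 8.11 in SOL. The EDL groups did not overlap and the SOL groups did. It rose by 1.54 ± 0.227 (adjusted p = 9.30e-05) in EDL, and its response difference was -1.80 ± 0.160 (SE, adjusted p = 1.78e-06). Ampd3, an AMP deaminase, was low in EDL of C at 6.62 to 7.24 and at 7.00 to 10.42 in EDL of T, and in SOL it was at 8.80 to 9.11 and 9.51 to 10.47. The EDL levels of the T mice other than T replicate 3 came near those of SOL. Its response difference was -1.67 ± 0.315 (SE, adjusted p = 0.00278), and the within-mouse differences of T and C overlapped. Acss1, which makes acetyl-CoA in mitochondria, rose by 2.65 ± 0.273 (adjusted p = 4.99e-06) in EDL and 0.76 ± 0.133 (adjusted p = 0.000491) in SOL. Vegfd, a growth factor of lymphatic vessels, rose by 2.42 ± 0.333 (adjusted p = 5.36e-05) in EDL and 0.47 ± 0.0958 (adjusted p = 0.00176) in SOL. The response differences of these genes were -1.89 ± 0.287 and -1.96 ± 0.279, and in both T replicate 3 lay within the range of the C mice. Sox4, a transcription factor, Ifi30, a thiol reductase of lysosomes, Slc15a4, a lysosomal transporter of peptides, and Zim1, an imprinted zinc finger gene, rose in EDL by 2.08, 2.00, 1.86 and 1.82 and were not called in SOL. Hamp2, a hepcidin gene whose close copy Hamp could share its probes, had a response difference of -2.07 ± 0.347 (SE, adjusted p = 0.00109), with 4.35 to 7.33 in EDL of T against 4.25 to 4.80 in C. The 12 genes with the highest and the 12 with the lowest response differences were all called in every fit that left out 1 mouse.

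**Figure D2:**
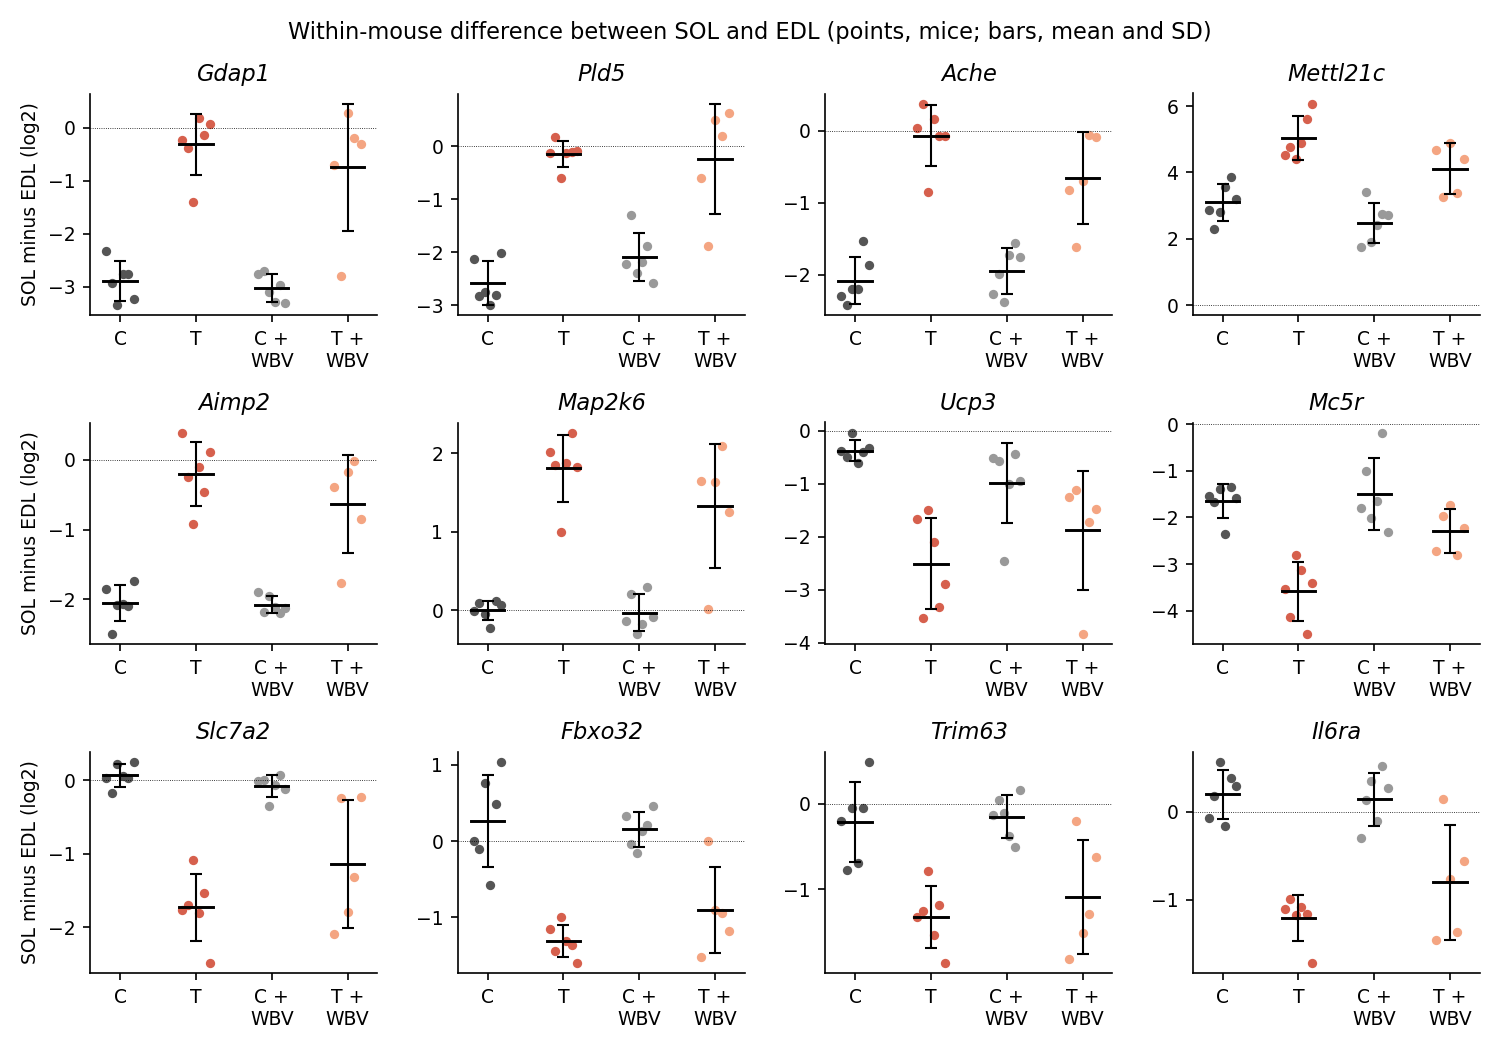
Level in SOL minus level in EDL (log2) of 12 genes in each C, T, C + WBV and T + WBV mouse, with points for mice and bars for the mean and SD. In Gdap1, Pld5, Ache and Aimp2 the C mice lie between -3.35 and -1.54 and the T mice between -1.41 and 0.39, and T + WBV replicate 2 is the mouse of its group nearest to the C + WBV mean in every panel but those of Mc5r and Slc7a2.

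The called response differences in the list of ubiquitin ligases and atrophy genes, which also holds genes of other functions, were all negative. Of 27 measured ubiquitin ligases and atrophy genes, 17 rose in EDL and 13 in SOL, with a median response of 1.15 in EDL and 0.57 in SOL, and 1 fell in EDL. The median of their response differences was -0.20, and -0.13 with each muscle normalized again. The response difference was called for 8, all negative, of which 6 were called without each mouse in turn. They were Trim63, Fbxo32, Fbxo30, Mt1, Foxo1, Gadd45a, Pdk4 and Tgif1. Trim63 (MuRF1), a ubiquitin ligase that tags myosin, was at 8.97 to 9.65 (median 9.21) in EDL and 8.83 to 9.47 (median 9.03) in SOL of C mice. In T mice it was at 10.87 to 12.31 (median 12.11) in EDL and 10.08 to 11.04 (median 10.74) in SOL. It was above all C arrays in every T array of both muscles, and above all SOL T arrays in 5 of 6 EDL T arrays. It rose by 2.66 ± 0.199 (adjusted p = 2.77e-07) in EDL and 1.54 ± 0.156 (adjusted p = 3.46e-06) in SOL, a response difference of -1.11 ± 0.183 (SE, adjusted p = 0.000954). Fbxo32 (atrogin-1), the ubiquitin ligase most often used as a sign of atrophy, was at 11.72 to 12.24 (median 12.18) in EDL and 10.39 to 11.08 (median 10.81) in SOL of T mice, against 9.30 to 10.36 and 9.79 to 10.34 in C. Its rise was 2.21 ± 0.169 (adjusted p = 3.10e-07) in EDL and 0.63 ± 0.111 (adjusted p = 0.000508) in SOL, and the response difference was -1.58 ± 0.195 (SE, adjusted p = 6.47e-05). Foxo1, a FoxO factor that can drive both ligases, rose by 2.15 ± 0.246 (adjusted p = 1.32e-05) in EDL and 1.13 ± 0.161 (adjusted p = 8.33e-05) in SOL, with a response difference of -1.02 ± 0.142 (SE, adjusted p = 0.000208). Gadd45a, which is raised in denervated muscle, had -0.89 ± 0.193 (SE, adjusted p = 0.00699), but its call was lost without any 1 of 8 mice.

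Lists of related processes had few calls. Of 33 proteasome subunits, 23 rose in EDL and 8 in SOL, with medians of 0.51 in EDL and 0.27 in SOL. Their response differences had a median of -0.29. Only Psma1 was called, at -0.61 ± 0.134 (SE, adjusted p = 0.00772), and its call was lost without any 1 of 10 mice. Of 31 autophagy and lysosome genes, 14 rose in EDL and 12 in SOL, the median response difference was -0.09, and 4 were called, all negative. Ctsl, a lysosomal protease, had -0.84 ± 0.143 (SE, adjusted p = 0.00122), and Bnip3, which marks mitochondria for autophagy, -0.65 ± 0.112 (SE, adjusted p = 0.00137). Both were called in each fit without 1 mouse, as was Map1lc3b, whereas Bnip3l was lost without any 1 of 4. The glucocorticoid response list, with 22 genes, had 14 that rose in each muscle, with 2 positive and 5 negative response differences, of which 2 and 3 were called without each mouse in turn. Of 28 genes of IGF and insulin signalling, 2 were positive and 4 negative, and 1 and 3 of these were called without each mouse in turn. Akt1, a kinase of that pathway, was at 8.20 to 8.54 in EDL of C and 8.70 to 9.95 in EDL of T, and its response difference was -0.995 ± 0.154 (SE, adjusted p = 0.000505). Eif4ebp1, a repressor of translation, rose by 2.31 ± 0.181 (adjusted p = 4.05e-07) in EDL and 1.60 ± 0.163 (adjusted p = 3.51e-06) in SOL, and Igfbp3, which binds IGF, by 2.07 ± 0.274 (adjusted p = 4.17e-05) and 1.38 ± 0.272 (adjusted p = 0.00132). The SOL rise was the smaller for both, with response differences of -0.70 ± 0.111 and -0.69 ± 0.115. Of 33 genes of myostatin, activin and BMP signalling 1 (Smad6) was positive and 3 (Mstn, Smad3 and Bmp4) negative. All 4 calls were lost without C replicate 3, without C replicate 5 and without T replicate 6, and with each muscle normalized again 1 was positive and 1 negative. Of 41 genes of ribosome biogenesis none was called.

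**Figure D3:**
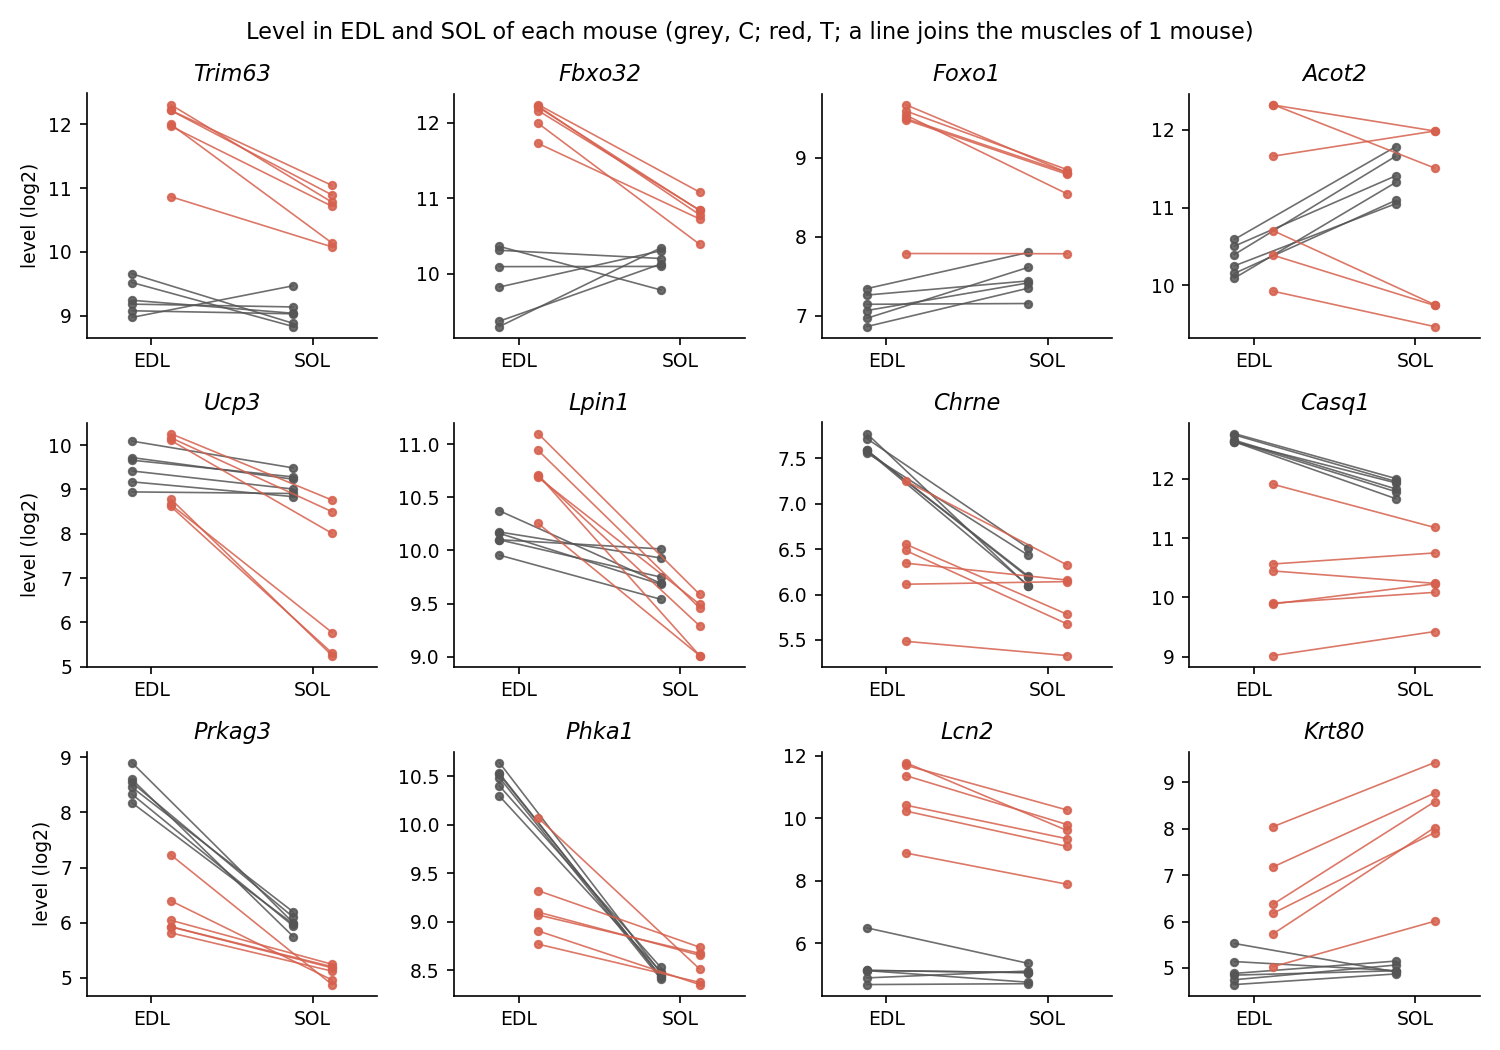
Level (log2) in EDL and SOL of each C mouse (grey) and T mouse (red) for 12 genes, with a line joining the muscles of 1 mouse. For Trim63, Fbxo32 and Foxo1 the red lines descend from EDL to SOL in nearly all mice, and for Casq1, Phka1 and Chrne the grey lines descend more steeply than most of the red ones.

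The called genes of fatty acid use all had a more negative response in SOL. Of 35 measured, 11 rose and 4 fell in EDL, and 2 rose and 6 fell in SOL, with medians of -0.07 in EDL and -0.45 in SOL. The response difference was called for 7, all negative, which were Cd36, Acot2, Ucp3, Plin4, Plin5, Acacb and Angptl4. Of these, 5 were called without each mouse in turn, and Plin5 and Angptl4 were lost without any 1 of 6 mice each. The median response difference of the list was -0.33. Ucp3, a mitochondrial carrier that follows the supply of fatty acids, was at 8.84 to 9.49 (median 9.12) in SOL of C and 5.25 to 8.76 (median 6.89) in SOL of T. In EDL it was at 8.94 to 10.09 in C and 8.62 to 10.26 in T, and every T mouse lay either above or below the C range. The T mice above that range in EDL were also the higher ones in SOL, with the levels of each mouse given under Other observations. The mean responses average over this split, whose cause was not tested. Ucp3 fell by 2.19 ± 0.523 (adjusted p = 0.00531) in SOL, the EDL value was -0.07 ± 0.299 (adjusted p = 0.906), and the response difference was -2.13 ± 0.266 (SE, adjusted p = 6.81e-05). Acot2, a thioesterase of mitochondrial acyl-CoA, was called in neither muscle, with 0.89 ± 0.339 (adjusted p = 0.0588) in EDL and -0.65 ± 0.388 (adjusted p = 0.276) in SOL. Within the mouse it stood 0.80 to 1.26 higher in SOL in C and at -0.95 to 0.32 in T, which did not overlap, a response difference of -1.53 ± 0.156 (SE, adjusted p = 7.91e-06). Pdk4, which shuts the pyruvate dehydrogenase complex when fat is burned, rose by 1.15 ± 0.311 (adjusted p = 0.00915) in EDL and was not called in SOL, at -0.10 ± 0.188 (adjusted p = 0.773). Its response difference was -1.26 ± 0.210 (SE, adjusted p = 0.00106).

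Genes of the respiratory chain fell in more cases in EDL than in SOL. Of 73 genes of oxidative phosphorylation, 65 were lower in EDL of T mice and 22 in SOL, with medians of -0.57 in EDL and -0.32 in SOL. The response difference was below 0 for 2 of the 73 and was called for 8, all positive. All 8 calls were lost without C replicate 2, without C replicate 3, without C replicate 4 and without T replicate 5. Ndufb11, a subunit of complex I, was at 9.51 to 9.80 in EDL of C and 8.89 to 9.46 in EDL of T, and had a response difference of 0.47 ± 0.0954 (SE, adjusted p = 0.00478), lost without any 1 of 5 mice, and each of the other 7 was lost without any 1 of 8 to 11 mice. In the vibrated mice the median response difference of the list was 0.09 against 0.24 in the untrained mice. In the citrate cycle 0 of 24 genes were called by limma, with medians of -0.48 in EDL and -0.49 in SOL.

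Of 36 genes of glycolysis and glycogen 6 were positive and 2 negative. The negative ones, Ppp1r3a and Ppp1r3d, which are regulatory subunits of glycogen phosphatase, were lost without any 1 of 8 and 9 mice, and both together without any 1 of 7. Of the positive ones 5 were called without each mouse in turn. Slc2a1 (GLUT1), the basal glucose carrier, was at 7.26 to 7.50 (median 7.40) in SOL of C and 8.29 to 9.95 (median 9.46) in SOL of T, and at 7.05 to 7.70 and 7.23 to 9.07 in EDL. It rose by 1.86 ± 0.196 (adjusted p = 5.07e-06) in SOL, and its response difference was 1.14 ± 0.126 (SE, adjusted p = 2.52e-05). Phka1, a subunit of the kinase that switches on glycogen breakdown, was at 10.30 to 10.64 (median 10.50) in EDL of C and 8.77 to 10.07 (median 9.09) in EDL of T, and at 8.41 to 8.53 and 8.35 to 8.74 in SOL. It fell by 1.27 ± 0.162 (adjusted p = 3.18e-05) in EDL and the response difference was 1.36 ± 0.154 (SE, adjusted p = 2.99e-05). Pgm1, which joins glycogen to glycolysis, fell by 2.10 ± 0.312 (adjusted p = 9.76e-05) in EDL and fell by 1.05 ± 0.195 (adjusted p = 0.000799) in SOL. Prkag3, the AMP kinase subunit of fast fibres, fell by 2.28 ± 0.198 (adjusted p = 1.11e-06) in EDL and fell by 0.89 ± 0.103 (adjusted p = 1.13e-05) in SOL, with a response difference of 1.39 ± 0.230 (SE, adjusted p = 0.00102). Prkaa2, the catalytic subunit of the same kinase, went the other way. It fell by 0.68 ± 0.116 (adjusted p = 0.000384) in SOL, was 0.01 ± 0.0801 (adjusted p = 0.953) in EDL and had a response difference of -0.69 ± 0.105 (SE, adjusted p = 0.000416). Ppargc1a, a master regulator of mitochondria, was not called at -0.16 ± 0.314 (SE, adjusted p = 0.835).

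**Figure D4:**
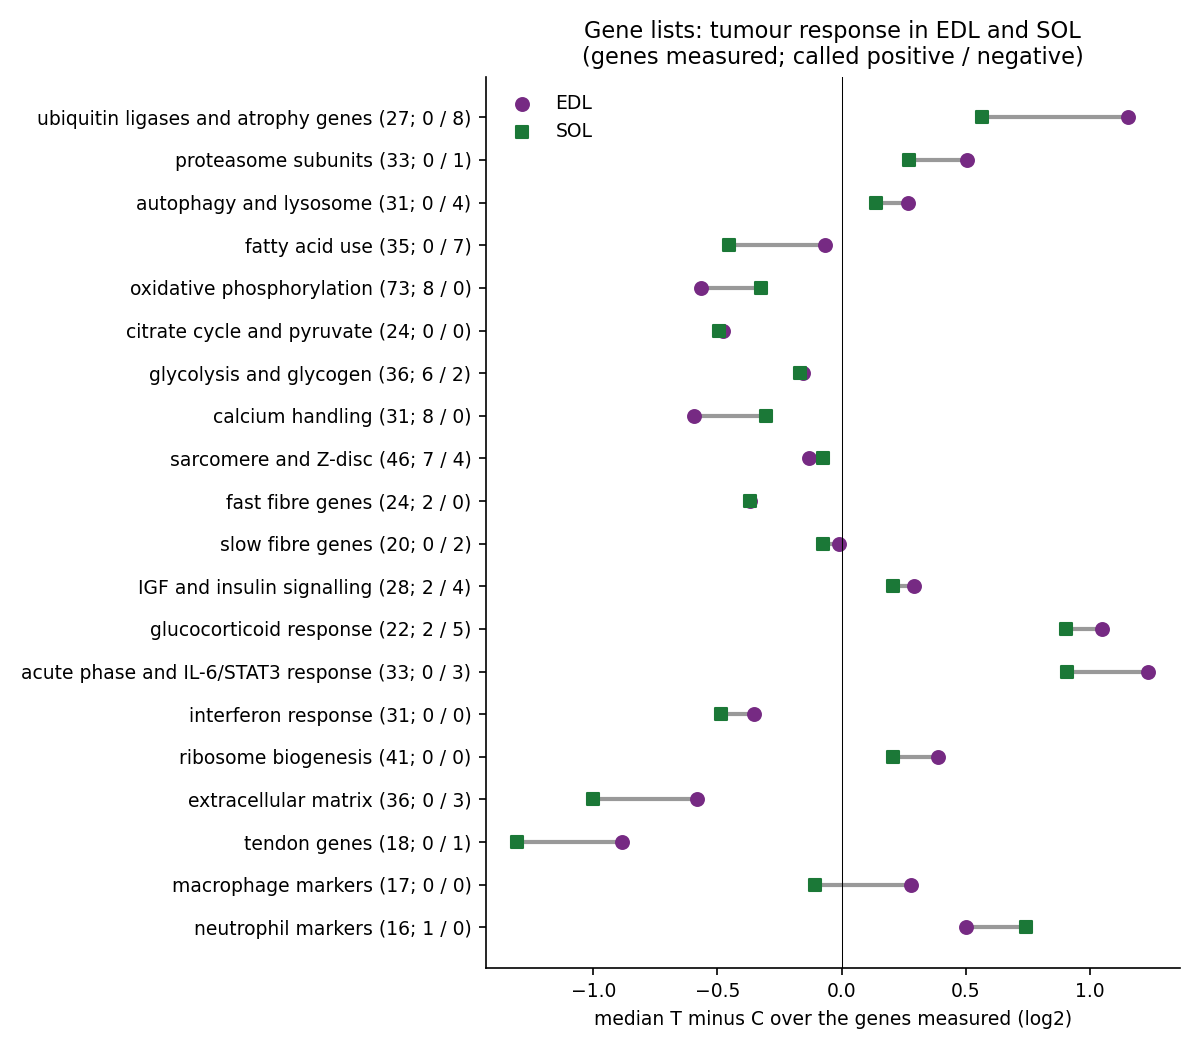
Median tumour response (T minus C, log2) in EDL (circles) and SOL (squares) over the measured genes of 20 gene lists, with the number measured and the numbers called with a positive and a negative response difference in parentheses. The circles lie farther from 0 than the squares for atrophy genes (1.15 against 0.57), oxidative phosphorylation (-0.57 against -0.32) and calcium handling (-0.60 against -0.31), and nearer to 0 for extracellular matrix, tendon genes and fatty acid use.

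Genes of calcium release fell in more cases in EDL than in SOL. Of 31 calcium handling genes, 18 fell in EDL and 10 in SOL, with medians of -0.60 in EDL and -0.31 in SOL, and all 8 called response differences were positive, for Cacna1s, Casq1, Jph2, Camk2a, Orai1, Stac3, Hrc and S100a1. Of these 5 were called without each mouse in turn, and Cacna1s, Orai1 and S100a1 were not. The list had a median response difference of 0.19. Casq1, the calcium store protein of fast fibres, was at 12.62 to 12.76 (median 12.64) in EDL and 11.66 to 12.00 (median 11.88) in SOL of C mice. In T mice it was at 9.02 to 11.90 (median 10.18) in EDL and 9.43 to 11.18 (median 10.23) in SOL. The muscles had separate ranges in C and overlapping ranges in T. Its response difference was 0.84 ± 0.141 (SE, adjusted p = 0.00109). Stac3, which couples the voltage sensor to the release channel, had 1.19 ± 0.138 (SE, adjusted p = 3.26e-05), and Jph2, which ties the transverse tubule to the calcium store, 0.83 ± 0.142 (SE, adjusted p = 0.00117). In EDL Jph2 fell by 1.63 ± 0.204 (adjusted p = 2.81e-05) and Stac3 was also called as lower. Both response differences were called without each mouse in turn.

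In the list of denervation and neuromuscular junction genes 3 of 27 were positive, Ache, Chrne and Myf6, and Gadd45a was negative. Ache, which breaks down acetylcholine in the synapse, was at 8.16 to 8.48 (median 8.34) in EDL and 5.96 to 6.63 (median 6.21) in SOL of C mice, and at 5.00 to 7.18 (median 6.07) and 5.37 to 6.33 (median 6.13) in T mice. The muscles were apart in every C mouse, by -2.42 to -1.54, and near each other in T, by -0.86 to 0.37. It fell by 2.26 ± 0.233 (adjusted p = 5.13e-06) in EDL, and the response difference was 2.01 ± 0.178 (SE, adjusted p = 1.78e-06). Chrne, the epsilon subunit of the adult acetylcholine receptor, fell by 1.26 ± 0.198 (adjusted p = 0.000149) in EDL, and its SOL value was -0.35 ± 0.149 (adjusted p = 0.107). Its response difference was 0.91 ± 0.160 (SE, adjusted p = 0.00150).

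In the sarcomere 7 of 46 genes were positive and 4 negative, and 3 of each were called without each mouse in turn. Actc1, the cardiac actin, fell by 2.16 ± 0.237 (adjusted p = 9.01e-06) in EDL and fell by 0.88 ± 0.144 (adjusted p = 0.000313) in SOL, with 1.28 ± 0.226 (SE, adjusted p = 0.00150). Ky, whose loss causes kyphoscoliosis with muscle degeneration in mice, fell by 4.13 ± 0.429 (adjusted p = 5.44e-06) in EDL and fell by 2.81 ± 0.352 (adjusted p = 2.65e-05) in SOL. Its response difference was 1.32 ± 0.257 (SE, adjusted p = 0.00344), which was lost without C replicate 1 and without C replicate 2. Lmod2, which lengthens actin filaments, and Myoz2, a Z-disc protein of slow fibres, rose in EDL towards the higher SOL level. Lmod2 was at 9.21 to 9.77 in EDL of C, 10.07 to 11.54 in EDL of T, 10.93 to 11.36 in SOL of C and 11.24 to 12.43 in SOL of T, with -0.88 ± 0.113 (SE, adjusted p = 9.49e-05). Myoz2 had -0.67 ± 0.0907 (SE, adjusted p = 0.000138). Myh7b, a slow myosin of another locus, fell by 1.05 ± 0.169 (adjusted p = 0.000265) in SOL and had -1.02 ± 0.157 (SE, adjusted p = 0.000483). The main myosin genes, whose close copies could share probes, were not called, with 0.33 ± 0.539 (SE, adjusted p = 0.797) for Myh7, -0.10 ± 0.186 (SE, adjusted p = 0.833) for Myh2, -0.47 ± 0.131 (SE, adjusted p = 0.0352) for Myh1 and 0.38 ± 0.350 (SE, adjusted p = 0.603) for Myh4. Neither were Tnni1 at 0.04 ± 0.303 and Tnni2 at 0.03 ± 0.0747, the slow and fast troponin I genes.

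Of the 517 genes only 2 rose in EDL and fell in SOL. Lpin1, a phosphatidate phosphatase that also regulates genes of fat use, was at 9.96 to 10.37 (median 10.13) in EDL and 9.54 to 10.02 (median 9.72) in SOL of C mice, and at 10.25 to 11.10 (median 10.71) and 9.01 to 9.59 (median 9.38) in T mice. The within-mouse difference was -0.68 to -0.09 in C and -1.70 to -1.19 in T, with no overlap. Lpin1 rose by 0.59 ± 0.114 (adjusted p = 0.000849) in EDL and fell by 0.46 ± 0.114 (adjusted p = 0.00701) in SOL, a response difference of -1.05 ± 0.105 (SE, adjusted p = 6.46e-06). Mc5r, a melanocortin receptor, was at 7.54 to 8.01 (median 7.86) in EDL of C and 7.82 to 9.43 (median 8.64) in EDL of T, and at 5.45 to 6.56 (median 6.31) and 4.11 to 5.91 (median 4.98) in SOL. It rose by 0.79 ± 0.183 (adjusted p = 0.00342) in EDL and fell by 1.15 ± 0.299 (adjusted p = 0.00933) in SOL, and its response difference was -1.94 ± 0.229 (SE, adjusted p = 3.78e-05).

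Most acute phase genes rose in both muscles. Of 33 genes of acute phase and interleukin 6 signalling, 24 rose in EDL and 23 in SOL, with medians of 1.24 in EDL and 0.91 in SOL. Called response differences were negative for 3, Lcn2, Stat3 and Il6ra, and that of Stat3 was lost without any 1 of 7 mice. The median response difference was -0.13. Lcn2 (lipocalin 2), which binds the iron carriers of bacteria, had the largest rise of all genes in EDL. It was at 4.68 to 6.49 (median 5.13) in EDL of C, 8.88 to 11.77 (median 10.89) in EDL of T, 4.70 to 5.35 (median 5.06) in SOL of C and 7.88 to 10.26 (median 9.47) in SOL of T. Its rise was 5.49 ± 0.416 (adjusted p = 2.82e-07) in EDL and 4.32 ± 0.272 (adjusted p = 3.80e-08) in SOL, with a response difference of -1.16 ± 0.205 (SE, adjusted p = 0.00150). Il6ra, the interleukin 6 receptor, was at 5.47 to 6.06 (median 5.88) in EDL of C and 7.83 to 9.40 (median 9.20) in EDL of T, and at 5.78 to 6.18 and 6.65 to 8.29 in SOL. It rose by 3.12 ± 0.210 (adjusted p = 1.13e-07) in EDL and 1.72 ± 0.202 (adjusted p = 1.37e-05) in SOL, with -1.40 ± 0.140 (SE, adjusted p = 6.46e-06). Socs3, the feedback inhibitor of this pathway, rose by 1.32 ± 0.123 (adjusted p = 1.77e-06) and 1.25 ± 0.135 (adjusted p = 6.69e-06) and had -0.08 ± 0.156 (SE, adjusted p = 0.844), which was not called. Serpina3n was just outside the threshold at -0.98 ± 0.224 (SE, adjusted p = 0.0106). Of 31 interferon response genes 0 were called by limma, with medians of -0.35 in EDL and -0.49 in SOL.

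The remaining lists held few called genes, where 1.15% of all genes were called positive and 1.60% negative. Whether a list departed from these shares was not tested. Of 24 fast fibre genes 2 were positive, Casq1 and Mylk2, and of 20 slow fibre genes 2 were negative, Myoz2 and Myh7b. Mylk2, the light chain kinase of skeletal muscle, had 0.81 ± 0.160 (SE, adjusted p = 0.00378), which was lost without any 1 of C replicates 1, 2 and 3 and T replicate 5. Of 31 energy regulators 3 were positive and 1 negative, and 1 of each was called without each mouse in turn. Nr4a1, a nuclear receptor that responds to activity, had 1.24 ± 0.252 (SE, adjusted p = 0.00477), lost without any 1 of 6 mice. Of 29 antioxidant genes 3 were negative, Gsr, Cat and Ucp3. Gsr, which reduces glutathione, had -0.77 ± 0.148 (SE, adjusted p = 0.00341), lost without T replicate 5, and the call of Cat (catalase) was lost without C replicate 3. In polyamine and purine metabolism 2 of 25 were positive and 1 negative, and Ampd1, the AMP deaminase of muscle, had 1.25 ± 0.160 (SE, adjusted p = 9.49e-05) where its relative Ampd3 was negative. Of 24 heat shock genes 1 was positive and 1 negative. Hspb8, the positive one, was lost without any 1 of 5 mice, and Hspb7, a small heat shock protein, had -0.63 ± 0.109 (SE, adjusted p = 0.00132). Of 31 genes of the amino acid response 1 was positive and 1 negative, Mthfd2 at 0.95 and Slc7a2, where Mthfd2 was lost without any 1 of 4 mice. Of 17 satellite cell genes 2 were negative, Vcam1 and Chodl, and both were lost without C replicate 3, without C replicate 4 and without T replicate 5. None of 16 clock genes was called by limma. Of the genes followed whether called or not, Mt2 (a metallothionein with close copies) had -1.37 ± 0.339 (SE, adjusted p = 0.0170) and Ddit4, an inhibitor of mTOR, -0.39 ± 0.171 (SE, adjusted p = 0.198).

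The connective tissue lists had lower medians in SOL than in EDL of the untrained mice. Of 36 extracellular matrix genes, 19 fell and 3 rose in EDL and 27 fell and 3 rose in SOL, with medians of -0.58 in EDL and -1.0004 in SOL, and 3 were called with negative response differences, Postn, Timp1 and Thbs2, of which Timp1 was lost without any 1 of 7 mice. Postn (periostin) was at 8.55 to 9.82 (median 9.38) in SOL of C and 5.18 to 7.64 (median 6.15) in SOL of T, and it had -1.09 ± 0.199 (SE, adjusted p = 0.00218). Thbs2 (thrombospondin 2) fell by 1.09 ± 0.147 (adjusted p = 5.07e-05) in SOL, was -0.11 ± 0.154 (adjusted p = 0.652) in EDL and had -0.98 ± 0.152 (SE, adjusted p = 0.000526). The median response difference of the list was -0.29 in the untrained mice and 0.15 in the vibrated mice, with the same sign for 11 of 36 genes. Of 18 tendon genes 10 fell and 1 rose in EDL and 12 fell and 1 rose in SOL, and the only call in the response difference, Col11a1, was lost without any 1 of 8 mice. The median response difference was -0.50 and 0.55, with the same sign for 2. No gene was called in the direct test of vibrated against untrained mice given below. The mean of 6 tendon markers was 7.03 to 8.15 in EDL of C, 5.32 to 7.19 in EDL of T, 7.89 to 8.82 in SOL of C and 5.79 to 6.43 in SOL of T. How much tendon came with each muscle sample was not tested. Collagen I was not called, with -0.31 ± 0.186 (SE, adjusted p = 0.372) for Col1a1.

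Markers of other cells gave few calls. Of 17 macrophage markers 4 rose in EDL and 2 fell in SOL. All 17 had a negative response difference, with a median of -0.45, but 0 were called, and in the vibrated mice the median was 0.02. Of 16 neutrophil markers 7 rose in EDL and 8 in SOL, and 1, Mmp8, was called, a call lost without any 1 of 9 mice. The mean of 5 neutrophil markers was 3.46 to 3.82 in EDL of C, 3.76 to 5.01 in EDL of T, 3.43 to 3.78 in SOL of C and 4.31 to 5.21 in SOL of T. Of 17 adipocyte markers 1, Dgat2, was called, at -0.88 ± 0.160 (SE, adjusted p = 0.00200). Lymphocyte, erythroid, endothelial and Schwann cell markers and genes of MHC class II had 0 calls of 14, 4, 19, 11 and 7.

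The vibrated mice gave a response difference from other animals, with T + WBV set against C + WBV. Of the 517 genes, 505 had the same sign there, 213 of 216 positive and 292 of 301 negative, against 62.9% of all genes. An unadjusted limma p under 0.05 with the same sign was seen for 362 of the 517 genes and for 7.86% of all genes. With 5 against 6 mice no gene passed an adjusted p of 0.01, whereas 25 passed 0.05, 23 of them among the 517. A fit of all 23 mice together, which shares 1 estimate of the spread, called 27 genes at 0.01, 24 of them among the 517. Under the unadjusted threshold of 0.05 were 1727 genes, and the other variance priors also called 0. The spread was wide in T + WBV, and without T + WBV replicate 2, the mouse with the highest body mass of that group at 100.9%, 119 genes were called. The median response difference of the positive genes was 0.78 in the untrained and 0.55 in the vibrated mice, and that of the negative genes -0.74 and -0.43. The 517 genes had been chosen by the untrained mice only. Across the genes, which are not independent, Pearson's r of the pair of values was 0.823 over the 216 positive and 0.634 over the 301 negative genes, as a description. A direct test of vibrated against untrained mice called 0 of 18820 genes, with 951 under an unadjusted p of 0.05.

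Among the named genes the vibrated values were 2.28 ± 0.401 (SE) for Gdap1, 1.86 ± 0.376 for Pld5, 2.45 ± 0.371 for Itga4 and 1.29 ± 0.244 for Ache. On the negative side they were -1.06 ± 0.203 for Fbxo32, -0.94 ± 0.234 for Trim63, -0.94 ± 0.244 for Il6ra, -1.62 ± 0.249 for Vegfd and -2.13 ± 0.625 for Hamp2. Itga4, Pla2g7 and Hamp2 had sizes as large as in the untrained mice. Values nearer to 0 were seen for Ucp3 at -0.89 ± 0.438, Mc5r at -0.80 ± 0.317, Sox4 at -0.33 ± 0.281 and Krt80 at 0.68 ± 0.465. Thbs2 had the opposite sign, at 0.38 ± 0.226.

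**Figure D5:**
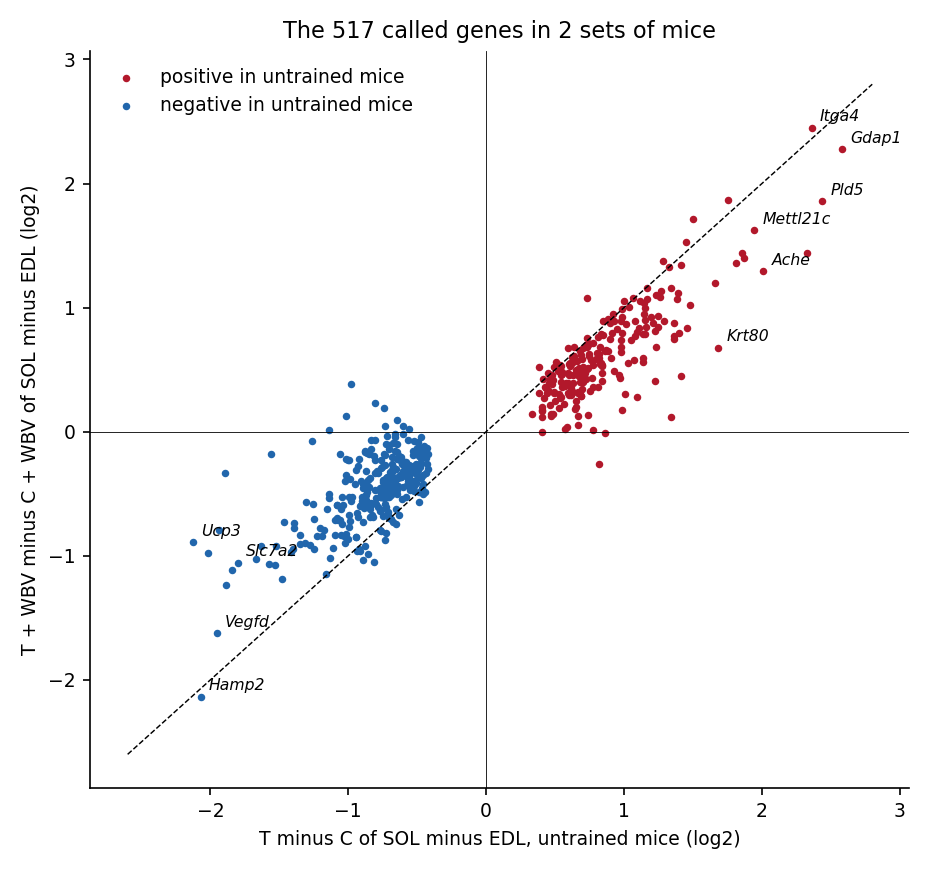
Response difference (T minus C of SOL minus EDL, log2) of the 517 called genes in the untrained mice (horizontal axis) and of T + WBV against C + WBV in the vibrated mice (vertical axis). Of the red positive genes 213 of 216 lie above 0 on the vertical axis and of the blue negative genes 292 of 301 lie below it, mostly nearer to 0 than the dashed line of equal values.

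Whether these genes differ between the muscles without a tumour was read in the C + WBV mice, which do not enter the response difference. There 969 genes (5.15%) were lower and 792 (4.21%) higher in SOL than in EDL. Of the 216 positive genes 120 were lower in SOL, 13 higher and 83 not called. Of the 301 negative genes 37 were lower in SOL, 71 higher and 193 not called. Gdap1 was -3.02, Cyp4f39 -3.35, Smox -2.59 and Ache -1.95 in SOL minus EDL of these mice, all called as lower in SOL. For Cyp4f39, C + WBV replicate 5 stood apart at -0.80, and the other C + WBV mice were at -4.23 to -3.33. Ampd3 was 2.12, Lmod2 1.92 and Acss1 1.78, called as higher in SOL. Fbxo32, Trim63, Il6ra and Lcn2 were not called there, at 0.16, -0.15, 0.14 and 0.01.

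Promoter letters were read in the 250 bases before the start of each gene in RefSeq (GRCm38.p6), which gave a sequence for 169 of the positive and 245 of the negative genes. In all 4 motifs were searched on both strands. The E-box CAGCTG, a binding word of the myogenic factors, was present for 26.0% of the positive and 14.7% of the negative genes, and for 14.3% of the 14749 measured genes with a sequence. TTCNNNGAA, the word of STAT factors, was present for 7.69%, 8.16% and 7.79%. GTAAACA, the word of FoxO factors, was present for 1.18%, 2.45% and 3.13%, and AGAACA, a word of the glucocorticoid receptor, for 14.2%, 13.5% and 15.3%. Over all 32851 promoters of the table the shares were 13.0% for the E-box, 7.02% for STAT, 3.17% for FoxO and 16.1% for the receptor word. These are descriptions of letters and not of binding. The windows printed here are those of 4 positive genes that hold the E-box, Chrne of the synapse, Casq1 of the calcium store and Phka1 and Prkag3 of energy supply, and of 2 negative genes, Trim63 and Ucp3, that hold other words. Capitals mark every match, read 5′ to 3′ on the strand of the gene.
Chrne (chr11:70619195-70619444, - strand): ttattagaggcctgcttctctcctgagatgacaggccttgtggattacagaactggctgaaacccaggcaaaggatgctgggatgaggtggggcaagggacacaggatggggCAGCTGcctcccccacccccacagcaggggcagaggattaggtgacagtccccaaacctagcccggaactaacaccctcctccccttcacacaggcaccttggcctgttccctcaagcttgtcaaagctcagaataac
Casq1 (chr1:172219896-172220145, - strand): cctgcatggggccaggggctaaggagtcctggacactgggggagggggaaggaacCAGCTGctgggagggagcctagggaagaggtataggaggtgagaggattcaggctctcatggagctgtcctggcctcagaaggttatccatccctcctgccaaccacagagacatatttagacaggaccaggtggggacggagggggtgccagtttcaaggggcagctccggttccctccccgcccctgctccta
Phka1 (chrX:102644247-102644496, - strand): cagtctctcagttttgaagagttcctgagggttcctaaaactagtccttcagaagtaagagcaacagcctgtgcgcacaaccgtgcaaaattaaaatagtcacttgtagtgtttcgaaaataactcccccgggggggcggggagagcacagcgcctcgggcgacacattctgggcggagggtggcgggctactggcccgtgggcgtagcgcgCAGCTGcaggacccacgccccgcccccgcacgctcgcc
Prkag3 (chr1:74748956-74749205, - strand): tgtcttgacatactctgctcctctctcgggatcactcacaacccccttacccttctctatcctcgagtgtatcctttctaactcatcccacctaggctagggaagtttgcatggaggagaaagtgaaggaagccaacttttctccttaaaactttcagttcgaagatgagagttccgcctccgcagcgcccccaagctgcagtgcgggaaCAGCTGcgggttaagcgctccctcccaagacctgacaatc
Trim63 (chr4:134314870-134315119, + strand): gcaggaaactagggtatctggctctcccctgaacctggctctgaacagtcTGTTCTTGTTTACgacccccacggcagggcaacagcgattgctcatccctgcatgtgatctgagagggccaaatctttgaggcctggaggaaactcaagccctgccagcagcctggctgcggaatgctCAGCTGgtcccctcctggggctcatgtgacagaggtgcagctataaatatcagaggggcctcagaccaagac
Ucp3 (chr7:100472741-100472990, + strand): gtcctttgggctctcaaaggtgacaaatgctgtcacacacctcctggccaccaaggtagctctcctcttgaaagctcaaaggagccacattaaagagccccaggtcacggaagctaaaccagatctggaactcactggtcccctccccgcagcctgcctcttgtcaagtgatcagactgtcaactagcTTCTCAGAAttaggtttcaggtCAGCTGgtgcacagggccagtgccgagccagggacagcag
The E-box began 138 bases before the start in Chrne, 195 in Casq1, 38 in Phka1, 40 in Prkag3, 72 in Trim63 and 40 in Ucp3. In Trim63 the receptor word, as TGTTCT, began 200 bases before the start and the FoxO word, as TGTTTAC, 194 bases, so that they stand side by side in 1 run of capitals. In Ucp3 the STAT word began 62 bases before the start.

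For the masses of the muscle samples a difference between SOL and EDL in their response was not shown. The labels do not say whether a mass is that of the whole muscle or of the part taken for RNA. SOL weighed 5.6 to 6.7 mg in T and 6.4 to 7.3 mg in C, and EDL 4.8 to 8.3 mg in T and 6.6 to 8.8 mg in C. The mean of T minus that of C was -0.817 mg in SOL (exact two-sided permutation p = 0.00866) and -1.4 mg in EDL (p = 0.0411, same test). The log2 ratio of SOL to EDL within the mouse averaged -0.0683 in T mice (SD 0.316, n = 6) against -0.182 in C mice (SD 0.158, n = 6). Their difference of 0.114 had p = 0.450 in an exact two-sided permutation test, where the smallest possible p is 0.00216. Leaving out 1 mouse moved it to 0.0361 without T replicate 6, 0.0538 without T replicate 1 and 0.209 without T replicate 2, and no leave-out of 1 mouse gave an exact p under 0.05.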

How the data were processed

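Total RNA of each muscle was measured on 1 array (Affymetrix Mouse Gene 1.1 ST), and the deposited table holds log2 values of 35556 probe sets (0.667 to 13.55) that the authors had normalized together by RMA, which subtracts background, sets all arrays to the same quantiles and can compress fold changes. No RMA version was found in the labels or the methods. The methods name a custom probe annotation, but the identifiers of the table are those of the array maker. Probe sets with 1 symbol (21218) were averaged to 18820 genes, and 1881 with several symbols and 12457 with none were left out of the genes. No filter on low values was applied. Precision is limited by the number of arrays.

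Groups and the mouse number came from the labels. SOL minus EDL was formed per mouse, since both muscles of a number came from the same animal. Their deviations from the group means correlated at 0.0503 to 0.532 (median 0.147), and 10 of 12 mice had their own EDL as the best match of their SOL. T and C (or T + WBV and C + WBV) were compared with limma 3.58.1 (lmFit, eBayes with an intensity trend, R 4.3.3), Benjamini-Hochberg adjusted over all genes, at 0.01. The fit was tested on simulated data. Alternatives changed the variance prior, block, scaling, gene summary, threshold and mice. Muscle masses and response sizes were compared by exact permutation. Named genes were the 12 largest differences each way, up to 3 called per list, those called oppositely in the muscles, and a fixed set. The members and the 35 gene lists were chosen with earlier results of these data known.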

Additional observations from a re-analysis of the deposited data

Results flagged for a closer look

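The T and the C mice were examined for SOL minus EDL of each named gene, as 178 groups of 6 mice. These groups share the same mice and are not independent. Chance would give a far mouse in about 1 in 20 independent groups, and 20 groups held a mouse far from the other mice. T replicate 3 was that mouse for Ache at -0.86, Acss1 at 1.64, Ampd3 at 2.52, Bnip3 at 0.78, Foxo1 at -0.00292, Gdap1 at -1.41, Hspb7 at 0.86, Map2k6 at 1.00, Phka1 at -1.56, Stac3 at 0.10 and Vegfd at 1.37. The remaining cases were Angptl4 at -0.53 in T replicate 6, Igfbp3 at -0.91 in T replicate 1, Il6ra at -1.72 in T replicate 6, Mc5r at -2.36 in C replicate 4, Myh4 at -3.53 in T replicate 4, Postn at 1.75 in C replicate 6, Postn at 2.27 in T replicate 1, Ppargc1a at -2.09 in T replicate 2 and Zfp503 at -1.28 in C replicate 3.

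The tumour response differed between SOL and EDL for 517 genes by the test of the difference itself. Lpin1, with a response difference of -1.05, and Mc5r, with -1.94, were called in opposite directions in the muscles. Of the 12457 probe sets without a gene symbol, which no comparison of genes uses, 28 were called in the response difference in a fit of all probe sets, out of 177 called there.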

How the results depend on the processing

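All 517 genes kept their direction under every alternative that fitted them, which was 470 of them among genes above the median level. The alternatives reused the arrays that had chosen these genes, and another variance prior cannot change a direction. The count was 244 with 1 prior variance for all genes, 283 with the mouse as a random block, 177 over all probe sets and 1272 (492 positive, 780 negative) at an adjusted p under 0.05. Without the replicate block that pairs the muscles of a mouse it was 121, of which 119 were among the 517. T and C mice share only a number (correlations of -0.0177 to 0.0834), and a replicate block across T and C gave 538. Leaving out 1 mouse gave 288 (without C replicate 3) to 836 (without T replicate 3), with 326, 334, 308 and 340 without C replicate 1, C replicate 4, T replicate 5 and T replicate 6. The remaining alternatives gave 415 to 614. The alternatives for the response in EDL, in SOL and in the vibrated mice and for SOL against EDL were chosen after seeing the data. Leaving out 1 mouse gave 0 to 119 genes in the vibrated mice and 1168 (without C + WBV replicate 1) to 1823 for SOL against EDL in C + WBV. The size of the response was -0.0665 (exact p = 0.03125) over genes above the median level and -0.00504 (exact p = 0.625) as a median absolute distance. The difference in the mass ratio was 0.0361 to 0.209 with 1 mouse left out.

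Of the named genes, 15 values under an alternative had the other sign, all of genes that were not called. Leaving out 1 mouse gave -0.27 to 0.0250 for Myh2 (0.0110 without T replicate 1), -0.0252 to 0.55 for Myh4, -0.0284 to 0.78 for Myh7, -0.32 to 0.23 for Ppargc1a and -0.14 to 0.0183 for Socs3. It gave -0.16 to 0.22 for Tnni1 and -0.0104 to 0.0634 for Tnni2, which was -0.0876 with each muscle normalized again. The cause was not tested. Of the remaining values 1644 kept their side of the threshold, 287 lost the call and 7 gained it.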

Other observations

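Levels of Ucp3 and Acot2, a pair of the 35 measured genes of fatty acid use that was picked after its values were seen, varied among the T mice in both muscles. The levels of Ucp3 in SOL and EDL were 8.50 and 10.17 in T replicate 1, 5.25 and 8.79 in T replicate 2, 8.76 and 10.26 in T replicate 3, 8.01 and 10.11 in T replicate 4, 5.31 and 8.62 in T replicate 5 and 5.77 and 8.66 in T replicate 6. Those of Acot2 were 11.51 and 12.32 in T replicate 1, 9.47 and 9.92 in T replicate 2, 11.98 and 11.66 in T replicate 3, 11.98 and 12.32 in T replicate 4, 9.74 and 10.39 in T replicate 5 and 9.75 and 10.70 in T replicate 6. T replicates 1, 3 and 4 were the higher ones in each muscle for both genes. The samples were not grouped by these values in any test.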
